A study of Mus musculus with 16 samples.

Results

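The effect of a human tau transgene on the hippocampus was measured in mice that lack Ch25h, the gene of cholesterol 25-hydroxylase. The comparison took the 4 libraries labelled TCKO (tau transgene and Ch25h knockout) against the 4 labelled CKO (Ch25h knockout alone), 8 of the 16 libraries of the series, chosen by their genotype labels and not by any measured value. All 8 libraries came from mice with the Ch25h knockout, so the groups differ by the transgene alone as far as the labels say. PS19 mice carry human 1N4R tau with the P301S mutation, found in familial frontotemporal dementia, and the prion protein promoter drives it. They had been crossed to Ch25h knockout mice, and the same cross gave wild type (WT) and PS19 (T) mice, 4 libraries each, which serve here only to show where the tau effect without Ch25h differs from the tau effect with it. The mice were female, 40 weeks old by their labels and aged to 9.5 months by the protocol, and were perfused with PBS before the right hippocampus was frozen. RNA was turned into libraries with an oligo-dT kit for low input. Levels below are CPM (reads of a gene scaled to a fixed library size) after scaling for library composition, and values for single libraries are given in the order CKO 1, 2, 4 and 5, then TCKO 2, 3, 4 and 5.

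As background, cholesterol 25-hydroxylase adds a hydroxyl group to cholesterol, and activated macrophages and microglia make its product, 25-hydroxycholesterol. That oxysterol restrains the SREBP pathway, which switches on genes of cholesterol synthesis and uptake, and it activates liver X receptors, which switch on genes of sterol export. Mutant tau aggregates inside neurons in the PS19 model, and microglia and astrocytes around them take on reactive states: microglia make complement, lysosomal and antigen-presenting proteins, and astrocytes make more of the filament protein GFAP. The hippocampus is among the regions this pathology reaches.

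Depth was 15064309 to 26417541 estimated reads in CKO and 24057188 to 31359268 in TCKO (n = 4 each). The labelled tissue was checked against markers of hippocampal cells. Prox1, which marks dentate granule cells, lay at 37.7 to 87.1 CPM in CKO and 27.5 to 79.2 CPM in TCKO. Wfs1, which marks CA1 pyramidal cells, lay at 80.4 to 110 CPM and 80.0 to 117 CPM, so defining markers of both fields were present in all 8 libraries. Camk2a, a kinase of excitatory neurons, lay at 2550 to 3350 CPM in CKO and 2620 to 3720 CPM in TCKO, and the microglial receptor P2ry12 at 99.1 to 117 CPM and 83.0 to 139 CPM. Because whole tissue was sequenced, more cells of a type and more RNA per cell cannot be told apart in anything that follows.

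The genotype labels held. Ch25h (chromosome 19, 34473778 to 34475164, minus strand, GRCm38) had 2, 0, 0 and 1 reads in CKO and 0, 1, 1 and 0 in TCKO, against 18 to 40 reads in WT and 133 to 300 in T. With 3 reads over CKO and 2 over TCKO, no difference between the knockout groups was detectable. Mapt, the tau gene (chromosome 11, 104231390 to 104332090, plus strand), stood at 386, 363, 382 and 369.8 CPM in CKO and 1138, 812, 943 and 1052 CPM in TCKO. Every TCKO library lay above every CKO library, with a log2 fold change of 1.4 ± 0.11 (SE; edgeR adjusted p = 7.04e-06), and a fold of 2.63. In the deposited TPM, which are scaled by transcript length, Mapt was 186 ± 19.7 in CKO and 833 ± 143 in TCKO (SD, n = 4 each). The deposited table has a single Mapt entry, so reads from the human transgene and from the mouse gene cannot be told apart in it. The difference of the tau effects on Mapt, with the effect in TCKO over CKO minus the effect in T over WT, was 0.25 on the log2 scale (adjusted p = 0.392).

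Prnp, which encodes the prion protein (chromosome 2, 131909928 to 131938429, plus strand), stood at 835, 953, 798 and 1061 CPM in CKO and 2475, 1766, 2312 and 2312 CPM in TCKO. It rose with a log2 fold change of 1.28 ± 0.13 (SE; edgeR adjusted p = 0.000203), and its deposited TPM went from 628 ± 90.2 to 1460 ± 191 (SD, n = 4 each). Whether the transgene transcript adds reads to the Prnp entry cannot be told from the counts and was not tested. The Prnp promoter is the kind of element that drives the transgene, and the 250 bases before the mouse Prnp start are printed here from the RefSeq annotation of GRCm38.p6 (chr2:131909678-131909927, plus strand), read from the reference genome and not from the transgene. Capitals mark the GC box letters GGGCGG on either strand, a short element bound by SP-family factors, which occurred at 2 places here and in 32.7% of the 32851 promoters of the same length, in 59.8% of the tested genes with an entry and in 59.2% of the rises with one.
Prnp promoter: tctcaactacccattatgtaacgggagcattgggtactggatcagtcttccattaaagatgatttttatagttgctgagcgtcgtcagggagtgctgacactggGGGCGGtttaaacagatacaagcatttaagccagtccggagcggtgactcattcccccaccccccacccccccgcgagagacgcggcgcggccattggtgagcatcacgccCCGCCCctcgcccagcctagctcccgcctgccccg
A match of letters is a description and not a shown binding site. Next to Prnp, the processed pseudogene Lamr1-ps1 (chromosome 2, 131904086 to 131904959, ending 4969 bp before Prnp) had 0 reads in all 4 CKO libraries and 34, 12, 38 and 24 in TCKO, at least 30.3-fold higher against a floor of 3 reads over the group. In T it had 21, 22, 15 and 18 reads, and over WT 2 reads. Its call in TCKO over CKO held in all 8 fits that each leave out 1 library. Lamr1-ps1 was named after its values were seen. It shares sequence with the ribosomal protein gene Rpsa, and where its reads come from was not tested.

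Gbp2b, an interferon-inducible guanylate-binding GTPase (chromosome 3, 142594847 to 142619179, plus strand), had 0 reads in all 4 CKO and all 4 WT libraries. In TCKO it had 61, 103, 41 and 35 reads, at least 67.3-fold higher than CKO against the same floor (edgeR adjusted p = 0.000729). In T it had 2286 reads over 4 libraries, or 15.1 to 22.5 CPM against 1.37 to 3.26 CPM in TCKO. The lincRNA 4930590L14Rik, chosen after its values were seen, lies 1.64 Mb before Gbp2b and had 0 reads in the same 8 libraries without the transgene, with 22, 20, 18 and 18 reads in TCKO (at least 21.9-fold higher). These were the 2 genes tested that had 0 reads in all 8 libraries without the transgene and reads in all 8 with it. The Gbp2b promoter is shown because interferon can switch the gene on. What lies behind its reads here was not tested. The 250 bases before its start (chr3:142594597-142594846, plus strand, RefSeq, GRCm38.p6) hold 1 match, in capitals, to the interferon-stimulated response element, spelled GAAA, any 2 bases and GAAA again, and searched on both strands.
Gbp2b promoter: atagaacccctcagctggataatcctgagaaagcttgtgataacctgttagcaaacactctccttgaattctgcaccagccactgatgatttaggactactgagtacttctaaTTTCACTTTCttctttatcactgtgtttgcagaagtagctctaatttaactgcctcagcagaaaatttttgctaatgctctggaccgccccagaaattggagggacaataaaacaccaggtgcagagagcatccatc
That element occurred in 2.98% of all 32851 promoters, in 3.25% of the tested genes with an entry and in 2 of the 49 genes with a promoter entry among those that rose, Gbp2b and Wipf1, an actin regulator of blood cells chosen for its promoter. The plot of levels in all 16 libraries shows Mapt and Prnp higher in both groups with the transgene, and Gbp2b at 0 without it.

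**Figure D1:**
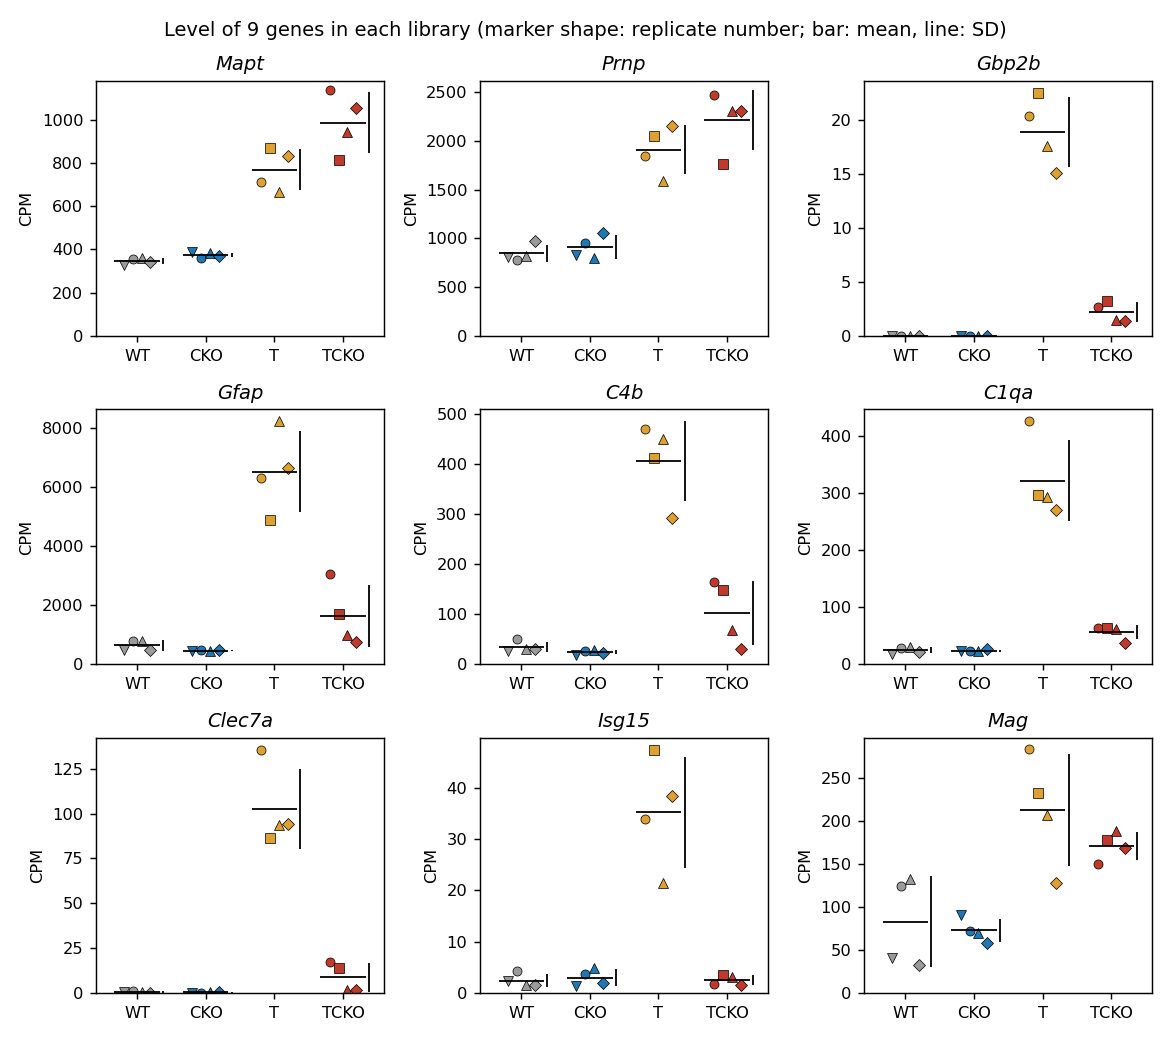
Levels of 9 genes in CPM (y axis, linear, from 0) in the WT, CKO, T and TCKO libraries; each point is 1 library, the marker shape gives its replicate number, the bar is the group mean and the vertical line the SD. Mapt in TCKO (812 to 1138 CPM) lies above CKO (363 to 386 CPM), Gbp2b is at 0 in WT and CKO, and Gfap, C4b, C1qa and Clec7a lie between CKO and T in most TCKO libraries.

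Across the 18565 genes tested, 100 changed between TCKO and CKO (0.539% of genes, edgeR quasi-likelihood test with Benjamini-Hochberg adjustment, adjusted p under 0.05). Of these, 65 rose (0.35%) and 35 fell (0.189%), by at least 2-fold for 35 of the rises and 15 of the falls. The rises had a median log2 fold change of 1.06 and the falls of -0.79, against 0.013 over all genes tested. Of the genes that rose, 61 were protein-coding; 4 were on the list of disease-associated microglia, 5 on that of complement and 2 on that of reactive astrocytes. The libraries of the 2 groups did not overlap for 64 of the 65 rises and all 35 falls; over all genes they did not overlap for 10.3%. The tau effect differed among the 4 TCKO libraries: for 41 of the 65 rises the 2 highest TCKO libraries were TCKO 2 and TCKO 3, and TCKO 5 was the lowest for 30. Measured as the median over the 65 rises, the log2 level above the CKO mean was 1.11 and 1.10 in TCKO 2 and TCKO 3, and 0.82 and 0.67 in TCKO 4 and TCKO 5. Since the rises were chosen on these libraries, those medians describe the spread and test nothing.

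The calls depended on single libraries. Without CKO 1, CKO 2, CKO 4 or TCKO 3 only 12, 10, 10 and 13 of the 65 rises and 1, 2, 1 and 2 of the 35 falls were still called, without TCKO 4 or TCKO 5 62 and 61 rises were, and DESeq2 called 507 rises and 280 falls where limma voom called 29 and 30. Each call named below therefore carries the number of fits, out of 8 that each leave out 1 library, in which it held, and a call that did not hold in all 8 was lost without at least 1 of CKO 1, CKO 2, CKO 4 and TCKO 3.

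Microglial genes of the disease-associated state, which microglia near protein aggregates switch on, had 4 calls. Of 28 genes on that list, 4 rose and none fell (background 0.35% for rises); the median log2 fold change was 1.06, 24 were positive, and 22 had an unadjusted p under 0.05. Over all genes tested 51.7% were positive and 17.5% had an unadjusted p under 0.05, and the counts of each list below are to be read against these shares. Clec7a, the beta-glucan receptor dectin-1, stood at 0.205, 0.172, 0.455 and 0.257 CPM in CKO and 17.3, 13.7, 1.74 and 1.68 CPM in TCKO. Every TCKO library lay above every CKO library, and TCKO 2 and TCKO 3 lay far above TCKO 4 and TCKO 5. Its log2 fold change of 5.04 ± 0.82 (SE; edgeR adjusted p = 0.0168) held in 5 of the 8 fits. Cst7, which encodes the protease inhibitor cystatin F, stood at 0.164, 0.474, 0.195 and 0.110 CPM in CKO and 19.3, 7.22, 1.52 and 0.546 CPM in TCKO, with a log2 fold change of 4.90 ± 0.92 (SE; edgeR adjusted p = 0.0265), held in 3 fits. Ccl6, a chemokine of myeloid cells, stood at 3.77, 3.41, 3.84 and 3.31 CPM in CKO and 38.5, 23.7, 8.67 and 8.08 CPM in TCKO, again with TCKO 2 and TCKO 3 highest, and with a log2 fold change of 2.46 ± 0.44 (SE; edgeR adjusted p = 0.024), held in 3 fits. Itgax, the integrin CD11c, had 93, 52, 26 and 0 reads in TCKO and 2 reads over all of CKO, a ratio of 71.9 (95% exact counting interval 19.6 to 599.0). TCKO 5 at 0 reads overlapped CKO, and the call held in 2 fits.

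Over all 28 genes the level followed the same libraries. The mean log2 level of the 28 genes above the CKO mean was 1.69 in TCKO 2, 1.35 in TCKO 3, 0.59 in TCKO 4 and 0.20 in TCKO 5, while the 4 CKO libraries spanned -0.11 to 0.10. TCKO 5 thus lay close to the highest CKO library on this list. In T the same score ran from 2.82 to 3.48, above every TCKO library. Without TCKO 4 or TCKO 5 the list had 15 and 16 calls, without CKO 1, CKO 2 or CKO 4 it had 0, and DESeq2 made 16 and limma voom 0.

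Other genes that microglia and related blood cells use followed. Slamf9, a receptor of the SLAM family, stood at 0.860, 1.25, 1.56 and 1.25 CPM in CKO and 10.3, 8.93, 4.34 and 2.73 CPM in TCKO. It had a log2 fold change of 2.43 ± 0.34 (SE; edgeR adjusted p = 0.00662), and that call held in all 8 fits. Capg, an actin-capping protein of macrophages, stood at 3.32, 2.72, 2.80 and 2.79 CPM in CKO and 15, 15.4, 5.63 and 7.02 CPM in TCKO and had a log2 fold change of 1.89 ± 0.30 (SE; edgeR adjusted p = 0.0126), held in 6 fits. Cela1, a serine protease of the elastase family, stood at 2.46, 2.72, 2.34 and 1.80 CPM in CKO and 10.6, 9.76, 5.19 and 6.05 CPM in TCKO and had a log2 fold change of 1.76 ± 0.24 (SE; edgeR adjusted p = 0.00662), held in all 8. For all 3 genes the TCKO and CKO libraries did not overlap, and TCKO 2 and TCKO 3 were the highest. Lsp1, an actin-binding protein of leukocytes, rose by 1.25 ± 0.18 on the log2 scale (edgeR adjusted p = 0.00806), held in all 8 fits. A pair of immune checkpoint receptors rose too. Lag3, which binds MHC class II, stood at 3.93, 3.53, 3.25 and 3.09 CPM in CKO and 14.6, 14.8, 8.86 and 5.62 CPM in TCKO and had a log2 fold change of 1.66 ± 0.25 (SE; edgeR adjusted p = 0.00896), held in 7 fits. Pdcd1, the receptor PD-1, stood at 0.0819, 0, 0.325 and 0 CPM in CKO and 3.25, 2.28, 2.08 and 0.351 CPM in TCKO with a log2 fold change of 4.54 ± 0.76 (SE; edgeR adjusted p = 0.0199), held in 6 fits and resting on few reads in CKO. Il1rl2, a receptor for interleukin-36, rose by 1.65 ± 0.36 (adjusted p = 0.0479), held in 2 fits.

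The Slamf9 promoter is shown because this gene, whose call held in all 8 fits, carries a motif of the ETS family directly at its start. The 250 bases before the start (chr1:172475110-172475359, plus strand, RefSeq, GRCm38.p6) end in the letters GAGGAAGT, in capitals, the core that PU.1, a transcription factor of macrophages and microglia, binds.
Slamf9 promoter: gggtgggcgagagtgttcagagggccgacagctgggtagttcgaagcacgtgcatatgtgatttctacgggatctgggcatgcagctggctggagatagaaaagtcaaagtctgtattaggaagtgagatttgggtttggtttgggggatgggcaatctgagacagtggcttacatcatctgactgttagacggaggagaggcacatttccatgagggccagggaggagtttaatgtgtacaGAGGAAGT
On either strand GAGGAAGT occurred in 2.44% of all promoters, in 2.75% of the tested genes with an entry and in 5 of the 49 genes that rose and had an entry. The others were C1qc, Mmp12, the transmembrane gene Cmtm3 and Slc35b2, a transporter of the sulfate donor PAPS. The call of Slc35b2 held in 4 fits, and that of Cmtm3 only in the fit without TCKO 5. Cmtm3 and Slc35b2 were chosen for the match. None of the 19 genes with an entry that fell had it. Whether any factor binds there was not measured.

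Homeostatic microglial genes, which resting microglia express, had 1 call. Of 18 on the list Selplg alone rose, with a median log2 fold change of 0.43 and 15 positive; Selplg, the ligand of P-selectin, stood at 27.9, 27.6, 27.7 and 34.9 CPM in CKO and 44.6, 43.8, 47.4 and 43.2 CPM in TCKO, with a log2 fold change of 0.60 ± 0.12 (SE; edgeR adjusted p = 0.0301), held in 3 fits. All 4 TCKO libraries lay close together and above CKO. Without TCKO 4 or TCKO 5 the list had 5 calls each. Of 20 Fc receptor and phagocytosis genes none passed in edgeR, though 19 were positive (median 0.68) and 13 had an unadjusted p under 0.05; DESeq2 called 7 and limma voom 0. Cd68, a lysosomal protein of phagocytes, had a log2 fold change of 1.13 (adjusted p = 0.067), and Itgb2, the integrin subunit CD18, 1.41 (adjusted p = 0.057).

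**Figure D2:**
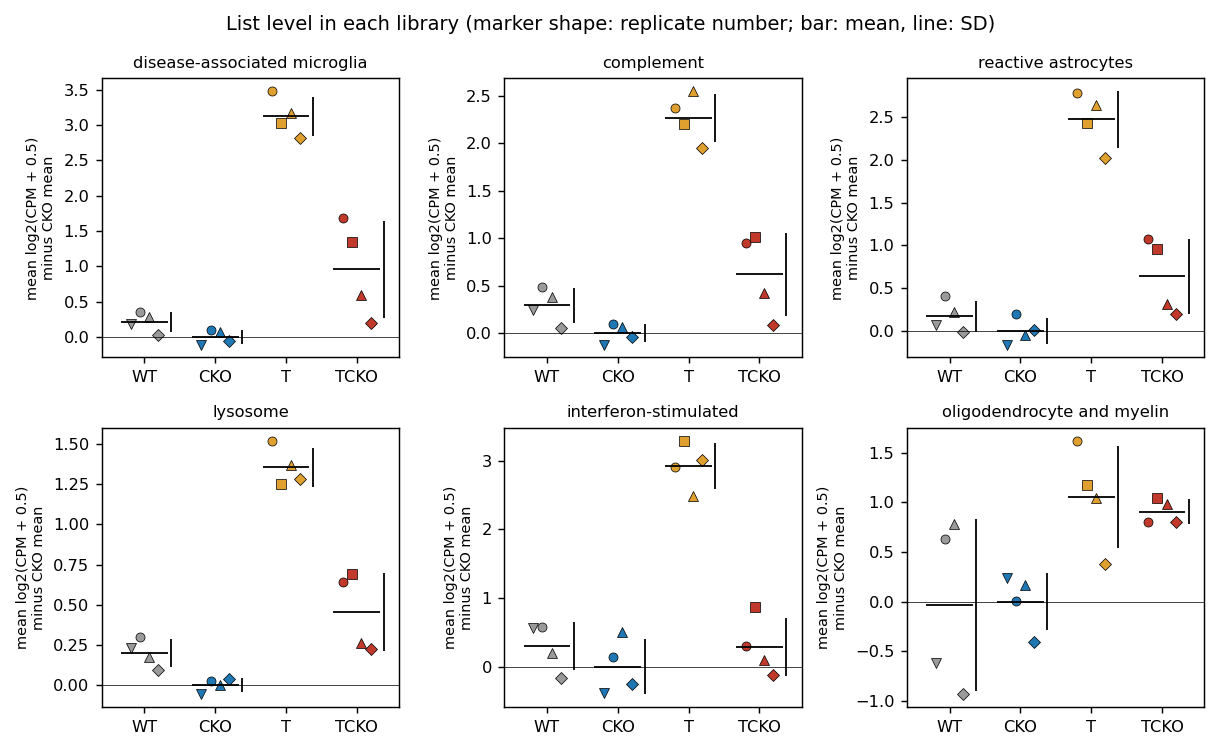
Mean log2(CPM + 0.5) of 6 gene lists minus the CKO mean (y axis) in each WT, CKO, T and TCKO library (points; bar, mean; vertical line, SD). On the microglial, complement, astrocyte and lysosome lists TCKO 2 and TCKO 3 lie above TCKO 4 and TCKO 5, and on the microglial list all TCKO libraries (0.20 to 1.69) lie below T (2.82 to 3.48).

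Complement, the cascade that tags synapses and debris for removal, had 5 calls on a list of 17 genes. All 5 rose, with a median of 0.53 and 14 positive. The rises were the C1q genes C1qa and C1qc, with C4b, C3ar1 and C1qb; C1qb was named after its values were seen. The C1q genes encode the chains of the cascade's first component and lie within 18.7 kb on chromosome 4. C1qa stood at 23.5, 22.8, 22.7 and 26.3 CPM in CKO and 63.4, 64, 62.8 and 38.2 CPM in TCKO, with a log2 fold change of 1.26 ± 0.19 (SE; edgeR adjusted p = 0.00806), and this call held in all 8 fits. TCKO 2, TCKO 3 and TCKO 4 lay close together while TCKO 5 was lower, still above every CKO library. C1qb stood at 113, 113, 124 and 106 CPM in CKO and 319, 283, 203 and 146 CPM in TCKO (log2 fold change 1.06 ± 0.21, adjusted p = 0.0334, 2 fits), and C1qc at 18.7, 23.2, 18.7 and 26.9 CPM in CKO and 54.8, 57.3, 52.6 and 32.6 CPM in TCKO (1.17 ± 0.20, adjusted p = 0.0209, 4 fits). Neither overlapped between groups. C4b, the fourth component, which reactive astrocytes and oligodendrocytes also make, stood at 18.5, 27.2, 27.9 and 23.3 CPM in CKO and 164, 149, 69.3 and 30.9 CPM in TCKO. TCKO 5 was close to the highest CKO library, and TCKO 2 and TCKO 3 were far above it. C4b rose with a log2 fold change of 2.09 ± 0.38 (SE; edgeR adjusted p = 0.0265), held in 2 fits. C3ar1, the receptor for the C3a fragment, stood at 3.69, 2.97, 3.64 and 3.49 CPM in CKO and 19.6, 15.5, 4.86 and 6.13 CPM in TCKO, with a log2 fold change of 1.74 ± 0.34 (SE; edgeR adjusted p = 0.0331), held in 2 fits. Without CKO 1, CKO 2, CKO 4 or TCKO 3 the list kept 1 call, and without TCKO 4 or TCKO 5 it had 6; DESeq2 made 6 and limma voom 2.

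C1qc, the gene of the C chain, is printed as the complement member whose promoter held the same ETS letters. The sequence is chr4:136892915-136893164 on the minus strand (RefSeq, GRCm38.p6), written 5′ to 3′ in the direction of the gene, and the capitals mark GAGGAAGT read on the opposite strand.
C1qc promoter: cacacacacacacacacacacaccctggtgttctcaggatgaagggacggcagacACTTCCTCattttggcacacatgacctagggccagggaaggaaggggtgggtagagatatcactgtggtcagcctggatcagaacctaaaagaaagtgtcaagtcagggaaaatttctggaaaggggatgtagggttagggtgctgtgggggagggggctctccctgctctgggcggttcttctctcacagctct
Of 10 complement genes with an entry, C1qc was the 1 that held these letters.

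Astrocyte genes were highest in the same libraries. Of 28 genes of reactive astrocytes 2 passed, all 28 were positive, the median log2 fold change was 0.73, and 16 had an unadjusted p under 0.05. Gfap, the intermediate filament of astrocytes, stood at 465, 474, 456 and 476 CPM in CKO and 3082, 1707, 1011 and 765 CPM in TCKO. The CKO libraries lay close together, while the TCKO libraries spread from TCKO 5 up to TCKO 2. Gfap rose with a log2 fold change of 1.81 ± 0.32 (SE; edgeR adjusted p = 0.0248), held in 3 fits. S1pr3, a receptor for sphingosine-1-phosphate, stood at 7.58, 7.89, 6.38 and 9.07 CPM in CKO and 45.4, 30.1, 13.5 and 11.2 CPM in TCKO, with a log2 fold change of 1.69 ± 0.34 (SE; edgeR adjusted p = 0.0347), held in 2 fits. The list's mean level above CKO was 1.07, 0.96, 0.32 and 0.20 in TCKO, and CKO spanned -0.16 to 0.20, so TCKO 5 was level with the highest CKO library. Without TCKO 5 the list had 6 calls, without any single CKO library 0. Of 16 astrocyte identity genes 1 rose (median 0.32, 13 positive). Mlc1, a membrane protein of astrocyte end-feet, stood at 107, 130.4, 114 and 157 CPM in CKO and 196, 274, 195 and 201 CPM in TCKO, with a log2 fold change of 0.77 ± 0.13 (SE; edgeR adjusted p = 0.0226), held in 4 fits. TCKO 3 was the highest there and the other TCKO libraries lay together above CKO.

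Genes of antigen presentation leaned upwards with few calls. On the MHC class I list 1 of 18 rose, with 16 positive and a median of 0.62. For 7 genes the libraries did not overlap (background 5.32% for higher). Tapbp, the chaperone tapasin that loads peptides onto class I molecules, stood at 35.5, 37.5, 30.1 and 39.3 CPM in CKO and 53, 61.3, 50.6 and 45.1 CPM in TCKO, with a log2 fold change of 0.56 ± 0.10 (SE; edgeR adjusted p = 0.0265), held in 3 fits. H2-K1, a class I heavy chain, had a log2 fold change of 0.89 (adjusted p = 0.077). None of 10 MHC class II genes passed in edgeR, yet 9 were positive, the median was 1.03, and 8 had an unadjusted p under 0.05; DESeq2 called 6 and limma voom 0. Cd74, the invariant chain of class II, had 2.64 (adjusted p = 0.063). Among 16 of the 20 cytokine and chemokine genes that could be tested, 1 rose (median 1.06, 15 positive). Ccl4, a chemokine that draws T cells and myeloid cells, stood at 0.328, 0.388, 0.781 and 0.367 CPM in CKO and 6.42, 6.11, 2 and 1.21 CPM in TCKO, with a log2 fold change of 3.13 ± 0.58 (SE; edgeR adjusted p = 0.0265), held in 2 fits. Ccl2 and Ccl3, chemokines of monocytes and microglia, had 2.42 (adjusted p = 0.061) and 2.44 (adjusted p = 0.068). Of 16 NF-kB subunit and target genes none passed in edgeR, 5 had an unadjusted p under 0.05, DESeq2 called 3 and limma voom 0.

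Of 30 genes on the interferon-stimulated list, which does not hold Gbp2b, none passed in TCKO over CKO in edgeR. On this list 7 had an unadjusted p under 0.05, DESeq2 called 1 and limma voom 0, and the median log2 fold change was 0.28. Isg15, a ubiquitin-like protein induced by interferon, stood at 1.27, 3.71, 4.88 and 2.02 CPM in CKO and 1.69, 3.42, 3.11 and 1.52 CPM in TCKO. The TCKO values lay inside the CKO range, with a log2 fold change of -0.24 ± 0.42 (SE; edgeR adjusted p = 0.81). In T it stood at 21.4 to 47.4 CPM, and the difference of the tau effects was -4.13 ± 0.59 (adjusted p = 0.00245). The T against WT effect passed for all 30 genes (median 3.0; 13% of all genes rose), and the difference of the tau effects passed for 26, all lower without Ch25h (background 2.45%). Mx1, an antiviral GTPase, had a difference of -7.42 (adjusted p = 0.00366), Oasl1, an antiviral protein of the oligoadenylate synthetase family, -4.65 (adjusted p = 0.0161), and Cxcl10, a chemokine that draws T cells, -4.58 (adjusted p = 0.0252). Gbp3, a relative of Gbp2b, had the smallest adjusted p of the list in TCKO over CKO, at 1.28 ± 0.29 (adjusted p = 0.0572), with a difference of -1.97. The mean level of the list above CKO was 0.30, 0.86, 0.10 and -0.12 in TCKO against -0.39 to 0.50 in CKO; TCKO 3 alone lay outside the CKO range.

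The Isg15 promoter is printed beside that of Gbp2b as the promoter of another interferon-inducible gene, one that did not pass. The sequence is chr4:156200819-156201068 on the minus strand (RefSeq, GRCm38.p6), 5′ to 3′ in the direction of the gene, and capitals mark 3 overlapping matches to the interferon-stimulated response element as spelled above.
Isg15 promoter: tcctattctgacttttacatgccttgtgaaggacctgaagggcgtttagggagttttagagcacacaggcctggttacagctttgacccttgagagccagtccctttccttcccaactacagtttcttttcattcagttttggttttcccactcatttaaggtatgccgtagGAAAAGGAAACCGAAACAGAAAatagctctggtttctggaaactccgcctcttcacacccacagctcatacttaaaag
Of 23 interferon-stimulated list genes with an entry, 13 (56.5%) held the element, against 3.25% of the tested genes with an entry. The list was made of genes induced by interferon, so its share was set by that choice.

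Lysosomal genes, whose products degrade what phagocytes and neurons take in, leaned upwards nearly throughout: 28 of 29 were positive, with a median of 0.43. Of these genes 11 were higher without overlap between libraries (background 5.32%) and 18 had an unadjusted p under 0.05, but 2 rose past the threshold. Gusb, the enzyme beta-glucuronidase, stood at 15.9, 18.1, 13.7 and 16.8 CPM in CKO and 29.4, 34.8, 22.5 and 23.9 CPM in TCKO, with a log2 fold change of 0.78 ± 0.14 (SE; edgeR adjusted p = 0.024), held in 3 fits. Tfeb, the transcription factor that switches on lysosomal genes, stood at 2.95, 2.97, 2.47 and 2.13 CPM in CKO and 4.42, 7.83, 7.71 and 7.18 CPM in TCKO. TCKO 2 was the lowest TCKO library there, unlike on the microglial list. Tfeb rose with a log2 fold change of 1.37 ± 0.29 (SE; edgeR adjusted p = 0.0453), held in 1 fit. Lgmn, the lysosomal protease legumain, was chosen after its values were seen and rose by 0.64 ± 0.12 (edgeR adjusted p = 0.0265), held in 2 fits. Without TCKO 4 or TCKO 5 the list had 9 and 10 calls, without CKO 1, CKO 2, CKO 4 or TCKO 3 it had 0, and DESeq2 made 13.

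Sterol genes are the pathway on which Ch25h acts. Of 26 cholesterol synthesis and uptake genes none passed in TCKO over CKO in edgeR, 3 had an unadjusted p under 0.05, DESeq2 called 1 and limma voom 0, and the median log2 fold change was 0.10. In T over WT 21 of the 26 fell (median -0.71; 11.2% of all genes fell), and the difference of the tau effects passed for 16, all higher without Ch25h (background 0.695%). Insig1, which holds SREBP in the endoplasmic reticulum when sterols are plentiful, stood at 71.3, 79.1, 70.5 and 75.9 CPM in CKO and 78.3, 106, 101 and 110.1 CPM in TCKO. All but TCKO 2 lay above CKO; the log2 fold change was 0.41 ± 0.11 (adjusted p = 0.0843) against -0.52 in T over WT, a difference of 0.93 (adjusted p = 0.00507). Mvd, an enzyme of the mevalonate pathway, had a difference of 1.16 (adjusted p = 0.0237). Of 23 sterol export and trafficking genes none passed in edgeR, 8 had an unadjusted p under 0.05, the median was 0.37, DESeq2 called 4 and limma voom 0.

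Myelin genes were mostly higher in every TCKO library than in every CKO library without passing the threshold. Of 17 oligodendrocyte and myelin genes all were positive, the median log2 fold change was 1.00, 15 did not overlap between groups (background 5.32% for higher), and 15 had an unadjusted p under 0.05. None passed in edgeR (lowest adjusted p = 0.105); DESeq2 called 3 and limma voom 0, and a fit of only these 8 libraries called 12. Mag, an adhesion protein of the myelin sheath, stood at 90.7, 72, 70.1 and 58.4 CPM in CKO and 149.8, 177, 189 and 168 CPM in TCKO. The groups did not overlap, and it had a log2 fold change of 1.23 ± 0.36 (SE; edgeR adjusted p = 0.105). The summed CPM of the list was 5490 to 9190 in CKO and 13900 to 18300 in TCKO, but 3690 to 16200 in WT and 10500 to 22900 in T, so WT libraries alone spanned more than the gap between the groups. The mean level above CKO was 0.80, 1.04, 0.99 and 0.80 in TCKO, so these genes did not follow the order of the TCKO libraries seen in microglial genes. The difference of the tau effects passed for none of the 17 (median -0.13). S1pr5, a sphingosine-1-phosphate receptor of mature oligodendrocytes chosen after its values were seen, rose by 1.59 ± 0.31 (edgeR adjusted p = 0.0309), held in 3 fits. On the list of disease-associated oligodendrocytes 1 of 13 rose, which was C4b again (median 0.79), and none of 12 precursor genes passed in edgeR, with 3 at an unadjusted p under 0.05 and 0 calls by DESeq2 and limma voom.

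Of the 65 rises, 60 (92.3%) also rose in T over WT, where 2417 of all 18565 genes tested rose (13%). They are 2.48% of the T rises. The 2 comparisons share no library, but they share the fit and its estimate of the spread of each gene. The 5 that did not pass in T over WT were Phgdh, Cbs, Sccpdh, Sspn and Lrrc61, all named after their values were seen. Phgdh, the first enzyme of serine synthesis, which astrocytes express, stood at 113, 119, 112 and 108 CPM in CKO and 166, 164, 156 and 163 CPM in TCKO. The TCKO libraries lay close together, all above CKO, with a log2 fold change of 0.52 ± 0.09 (SE; edgeR adjusted p = 0.0226), held in 4 fits; the difference of the tau effects was 0.40 (adjusted p = 0.094). Cbs, which makes cystathionine from homocysteine and serine, stood at 25.1, 27.4, 24.4 and 24.1 CPM in CKO and 40.4, 41, 34.4 and 31.6 CPM in TCKO with a log2 fold change of 0.54 ± 0.10 (SE; edgeR adjusted p = 0.0265), held in 2 fits. For Cbs the difference of the tau effects was 0.61 ± 0.15 (adjusted p = 0.0324), the only rise of the 65 with a difference past the threshold and positive. Sccpdh, an oxidoreductase-like protein, rose by 0.65 ± 0.13 (edgeR adjusted p = 0.0265, 4 fits), Sspn, sarcospan of the dystrophin complex, by 0.91 ± 0.17 (0.0265, 3 fits), and Lrrc61, a leucine-rich repeat protein, by 0.66 ± 0.14 (0.0453, 1 fit).

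Of 28 excitatory synapse genes none passed in edgeR, 19 were negative (median -0.20), 6 had an unadjusted p under 0.05, and 4 were lower in every TCKO library than in every CKO library (background 4.93% of genes tested); DESeq2 called 1 lower and limma voom 0. Grin2b, an NMDA receptor subunit, had -0.46 (adjusted p = 0.12) and Pclo, a scaffold of the presynaptic active zone, -0.45 (adjusted p = 0.13). In T over WT 8 of the 28 fell (median -0.29; 11.2% of all genes fell), and the difference of the tau effects passed for none (1 with the replicate number as a block). None of 16 inhibitory neuron genes passed in edgeR (median -0.09, 1 at an unadjusted p under 0.05), nor did any of 20 subfield genes (median -0.13, 5 at an unadjusted p under 0.05) or 19 immediate early genes (median 0.56, 4 at an unadjusted p under 0.05); DESeq2 called 0 inhibitory genes, 2 subfield genes lower and 3 immediate early genes higher, and limma voom 0 on each list. These shares at an unadjusted p under 0.05 stand beside 17.5% over all genes. Of 28 tau kinases and phosphatases none passed (median 0.02), 3 had an unadjusted p under 0.05, and DESeq2 and limma voom called 0; Gsk3b, a kinase that phosphorylates tau, had -0.33 (adjusted p = 0.16). Of 24 microtubule and axon transport genes Mapt alone rose (median -0.05). None of 20 stress and p53 genes and none of 18 heat shock genes passed in edgeR, with 5 and 4 at an unadjusted p under 0.05, 1 and 2 calls by DESeq2 and 0 by limma voom.

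Among matrix and protease genes 2 of 20 rose (median 0.21). Adamts1, a protease that cuts proteoglycans, stood at 10.1, 10.9, 9.37 and 9 CPM in CKO and 22.8, 18.2, 16.3 and 15.4 CPM in TCKO, with a log2 fold change of 0.88 ± 0.17 (SE; edgeR adjusted p = 0.0265), held in 2 fits. Mmp12, the macrophage elastase, had 79 reads over TCKO and 1 over CKO, a ratio of 66.5 (95% exact counting interval 11.6 to 2660.0), and held in 2 fits. Both were above CKO in all 4 TCKO libraries, for Mmp12 with only 3 reads in TCKO 5 against 1 in CKO 4.

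The 35 falls had a different shape from the rises. All 35 had their highest group mean in CKO, which choosing genes high in CKO against TCKO favours, and 11 (31.4%) also fell in T over WT, where 11.2% of all genes fell; their median log2 fold change was -0.79 in TCKO over CKO and -0.18 in T over WT. Of these, 22 were protein-coding. Rbm5, an RNA-binding splicing regulator, stood at 124, 122, 121 and 117 CPM in CKO and 80.5, 84.8, 85.6 and 85 CPM in TCKO, with a log2 fold change of -0.53 ± 0.09 (SE; edgeR adjusted p = 0.0199), held in 4 fits. The TCKO libraries lay close together, well below CKO. Srek1, a serine- and arginine-rich splicing regulator, stood at 80.2, 64.5, 70.7 and 65 CPM in CKO and 44.3, 46, 47 and 44.8 CPM in TCKO, with a log2 fold change of -0.62 ± 0.10 (SE; edgeR adjusted p = 0.0199), held in 5 fits. Arglu1, which modulates splicing and transcription, stood at 239.6, 197, 242 and 193 CPM in CKO and 143, 141, 145 and 160.1 CPM in TCKO, with a log2 fold change of -0.57 ± 0.11 (SE; edgeR adjusted p = 0.0265), held in 3 fits, and fell by 0.63 on the log2 scale in T over WT as well. Upf2, a factor of nonsense-mediated decay, fell by 0.56 (2 fits), Zcchc7, a cofactor of RNA surveillance, by 0.79 (3 fits), and Mettl3, the enzyme that writes m6A and chosen after its values were seen, by 0.47 (1 fit). Pan3, a subunit of a deadenylase, fell by 0.58 (2 fits).

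Other falls were of mixed roles. Prdm15, a zinc finger regulator of transcription, stood at 12.3, 12.1, 15.3 and 13 CPM in CKO and 5.38, 5.01, 7.04 and 8.43 CPM in TCKO, with a log2 fold change of -1.03 ± 0.18 (SE; edgeR adjusted p = 0.0209), held in 4 fits. Per2, a repressor of the circadian clock, stood at 12, 14.4, 12 and 14.2 CPM in CKO and 5.68, 7.54, 8.49 and 7.10 CPM in TCKO, with a log2 fold change of -0.87 ± 0.17 (SE; edgeR adjusted p = 0.0334), held in 2 fits, and fell by 0.91 in T over WT. Zfp280d and Zfp445, zinc finger proteins, fell by 0.59 (5 fits) and 0.45 (4 fits). Lrp1b, a large endocytic receptor, fell by 0.79 (2 fits), with a difference of the tau effects of -0.85 (adjusted p = 0.0479). Krit1, a junction protein of vessels, fell by 0.59, Map3k13, a stress kinase of neurons, by 0.56, Mgat4a, a glycosyltransferase, by 0.56, Fry, a scaffold of NDR kinases, by 0.55, Med20, a subunit of Mediator, by 0.53, and the zinc finger gene Zfp950 by 0.67. Each of these 6 held in 1 to 3 fits. The median log2 level of the 35 falls relative to the CKO mean was -0.95, -0.80, -0.67 and -0.66 in TCKO, -0.33 to -0.63 in WT and -0.51 to -0.85 in T. The falls were chosen for high values in CKO, which favours a CKO mean above the other groups, so these levels are a description and test nothing. Without CKO 1 or CKO 4 only 1 fall each remained called.

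The remaining 13 falls were gene models without a name, and 12 of them belong to the class TEC, gene models that still await testing by experiment. Of these 12, 11 lie inside a protein-coding gene and 10 in an intron on its strand, 3 of them in Auts2 and the others in genes such as Xkr4, Adgrb3, Dlg2 and Dapk1, named for their position only. Reads in such models cannot be told apart from unspliced RNA of the host gene. The whole class moved: 672 of 761 TEC models tested were negative (median -0.87), as were 52 of 58 sense intronic models (median -0.88), while protein-coding genes had a median of 0.04. TEC models took 0.197 to 0.274% of reads in CKO and 0.124 to 0.179% in TCKO, with no overlap, and 0.102 to 0.18% in WT and 0.114 to 0.216% in T. With the log2 share of reads on TEC models as a covariate, 3 rises (Mapt, Prnp and Gbp2b) and 0 falls were called. This share does not overlap between CKO and TCKO, so the fit separates the transgene from it only in part. A call lost there is not read as a smaller effect. The part of intronic reads in the falls was not tested further. The processed transcript Gm12940, chosen after its values were seen, stood at 47.4, 35.8, 51.5 and 32.7 CPM in CKO and 12.1, 15.7, 16.5 and 16.3 CPM in TCKO, with a log2 fold change of -1.46 ± 0.22 (SE; edgeR adjusted p = 0.00806), and held in all 8 fits.

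**Figure D3:**
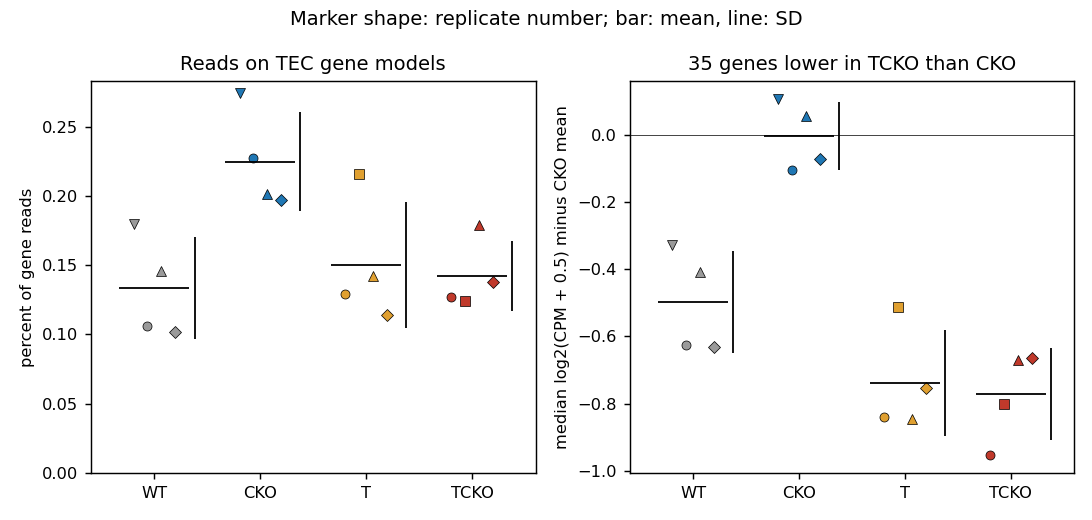
Share of reads on TEC gene models in percent (y axis of the left panel) and median log2 level of the 35 falls relative to the CKO mean (y axis of the right panel) in each WT, CKO, T and TCKO library (points; bar, mean; vertical line, SD). The CKO mean is the highest in both; CKO spans 0.197 to 0.274% of reads, where 1 T library at 0.216% overlaps it, and -0.11 to 0.11 in the right panel, above every other library.

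The tau effect with Ch25h present was read from T over WT. There 4490 genes changed (24.2%), against 100 in TCKO over CKO. Of 1388 genes that rose at least 2-fold in T over WT, 89.4% were positive in TCKO over CKO and 52 rose; their median log2 fold change was 0.58 there and 1.77 in T over WT, the comparison that chose them and so favours a larger value there. Of 187 genes that fell at least 2-fold in T over WT none was called in TCKO over CKO, with medians of -0.12 and -1.37. For 54 of the 65 rises the T mean was above the TCKO mean. The difference of the tau effects was tested itself: 584 genes passed (3.15%), 129 higher and 455 lower without Ch25h, while over all genes the median difference was 0.025 and 52.3% were positive. Of the 65 rises 15 had a difference past the threshold and lower.

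Several glial genes described above were among the 455 with a lower effect. For C1qa the difference of the tau effects was -2.45 ± 0.26 (adjusted p = 0.000269), for C1qb -1.97 (adjusted p = 0.0034) and for C1qc -2.19 ± 0.28 (adjusted p = 0.0016). Lag3 had a difference of -2.50 (adjusted p = 0.00202), Capg of -1.75 (adjusted p = 0.0264), Tapbp of -0.92 (adjusted p = 0.00409) and S1pr3 of -1.81 ± 0.47 (adjusted p = 0.045). Gfap at -1.53 (adjusted p = 0.072) and C4b at -1.45 (adjusted p = 0.136) did not pass. With the replicate number as a block C4b did (-1.67, edgeR adjusted p = 0.0395), but the labels do not say that the number pairs libraries. By list, the difference passed, always lower, for 15 of 28 disease-associated microglial genes, 12 of 28 reactive astrocyte genes, 13 of 18 MHC class I genes, 11 of 29 lysosomal genes and 6 of 17 complement genes, against a background of 2.45%. Mapt and Prnp had differences of 0.25 (adjusted p = 0.392) and 0.11 (adjusted p = 0.8). The scatter of both effects shows Mapt just above the line of equal effect, and Gfap, C1qa and Clec7a below it.

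**Figure D4:**
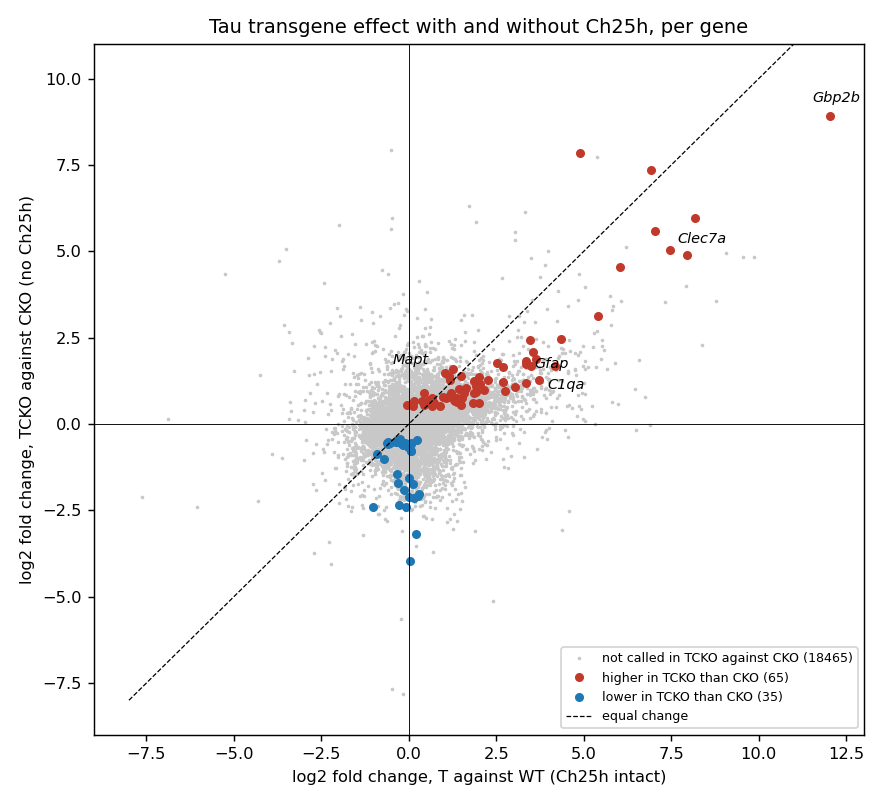
Log2 fold change of each gene tested in T over WT (x axis) and in TCKO over CKO (y axis); each point is 1 gene and the line marks equal effects. The 65 rises lie mostly below the line, with a median of 1.06 on the y axis and 1.85 on the x axis.

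**Figure D5:**
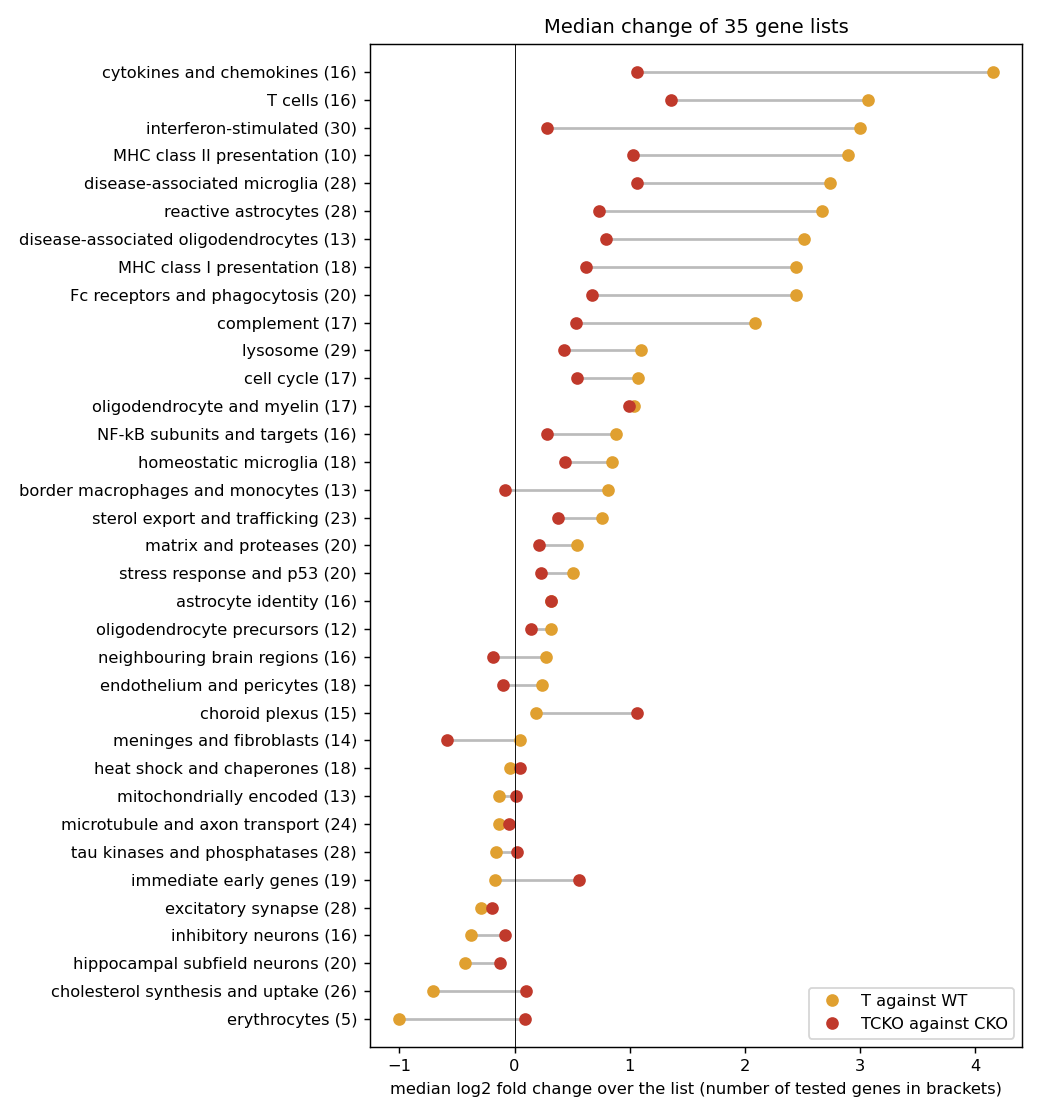
Median log2 fold change (x axis) of each of the 35 gene lists (y axis) in T over WT and in TCKO over CKO; the 2 points of a list are joined. The interferon-stimulated list has medians of 3.0 and 0.28, and the myelin list of 1.04 and 1.00.

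Markers of other cell types were read in the same libraries, and their part in the results above was not tested. Choroid plexus genes summed to 239 to 427 CPM in CKO and 440 to 1210 CPM in TCKO, highest in TCKO 3, without overlap; 14 of 15 were positive (median 1.06), none had an unadjusted p under 0.05, and edgeR, DESeq2 and limma voom called 0. Meningeal and fibroblast genes summed to 244 to 580 CPM and 164 to 241 CPM (median -0.59, 12 of 14 negative, 4 at an unadjusted p under 0.05), also without overlap and with 0 calls by the same tools. T cell genes summed to 7.7 to 11.7 CPM and 8.31 to 25.4 CPM; 13 of 16 were positive, none passed in edgeR, 5 had an unadjusted p under 0.05, and DESeq2 called 2 and limma voom 0. Border macrophage genes summed to 5.0 to 11.8 CPM and 7.57 to 10.2 CPM, with 5 of 13 positive. Erythrocyte genes summed to 69.3 to 243 CPM in CKO and 4.4 to 360 CPM in TCKO, and genes of neighbouring brain regions to 295 to 520 CPM and 306 to 408 CPM. On the endothelial list none of 18 passed (median -0.10, 4 at an unadjusted p under 0.05), and on the cell cycle list none of 17 (median 0.54, 5 at an unadjusted p under 0.05, 1 by DESeq2). The 13 mitochondrially encoded genes had a median of 0.01 and no member with an unadjusted p under 0.05, with 0 calls by the same tools.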

How the data were processed

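RNA sequencing of the right hippocampus gave 16 libraries, of which 8 were compared. The deposited values are estimated counts per gene made by the authors, and per the file headers the per-sample files also hold TPM; the sources used here name neither quantifier nor annotation. Named in the submitters' processing notes are bcl2fastq, STAR 2.5.1a, Subread and featureCounts 1.4.6-p5 and build GRCm38, without roles. The table had 55774 lines for 55487 genes, and each gene was kept once. Positions are from GENCODE M21 on GRCm38 and promoters from RefSeq on GRCm38.p6.

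Estimated counts were rounded, and edgeR 4.0.16 (R 4.3.3) ran the tests, with TMM scaling, filterByExpr (minimum count 10, minimum total 15), a mean per genotype over all 16 libraries, which share 1 estimate of the spread, quasi-likelihood F-tests and Benjamini-Hochberg adjustment over 18565 genes (threshold 0.05). The difference of the tau effects is the interaction of transgene and Ch25h knockout in that fit. The score of a list averages log2(CPM + 0.5) over its members and subtracts the average of the CKO libraries. Genes with 0 reads in a group are given as bounds against 3 reads over the group; bounds and counting intervals cover counting error only.

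By rule the named genes are Ch25h, Prnp and Mapt, the 15 rises and 15 falls of largest size among calls that reach 1 CPM without overlap, the 6 smallest p-values each way, the 8 largest differences of the tau effects each way, and, from each list, at most 4 members with the smallest p, without unnamed models, pseudogenes and ribosomal genes; the text prints a part of them, and a withheld gene is not reported here. The members and lists were chosen with earlier results of these data known. The labels do not say that replicates are separate mice, so the spread behind each p-value may be technical.

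Alternatives were DESeq2 1.42.0, voom in limma 3.58.1, other scalings and filters, only the 8 libraries compared, the replicate number as a block, leaving out each library, and, chosen after seeing the data, thinned libraries, leaving out TEC and sense intronic models, the TEC share as a covariate, and leaving out WT 1 and T 4, which are rich in choroid plexus genes. Deviations from the group means had r = 0.121, 0.137 and 0.304 between same-numbered WT and T libraries. Each of these was positive, while differently numbered libraries ran from -0.359 (WT 5 with T 4) to 0.128 (WT 2 with T 4). Whether the number pairs WT and T libraries cannot be told from these values, and the labels do not say. The block is therefore given as an alternative. In a single simulated draw per test, a small set of genes was changed in TCKO only. All other genes kept the same mean level in every group. The test of TCKO against CKO found 14.9% of the changes simulated at 1.5-fold, 55.2% at 2-fold and 80.3% at 4-fold, with 18228 genes run. The test of the difference found 2.99%, 16.4% and 51.5%, with 18239 genes run. Many more genes may change in the real data, so these shares need not hold there.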

Additional observations from a re-analysis of the deposited data

Results flagged for a closer look

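For the genes below the tau effect without Ch25h differed from the effect with it, by the test of the difference itself in edgeR (adjusted p under 0.05; log2 scale, negative where the effect was smaller or lower without Ch25h). Among genes that rose in TCKO over CKO the difference was -2.451 for C1qa, -1.973 for C1qb, -2.187 for C1qc, -2.501 for Lag3, -1.754 for Capg, -0.9169 for Tapbp, -0.7355 for Lgmn and -1.815 for S1pr3. Cbs, the enzyme of the transsulfuration pathway, went the other way at 0.6112. Among genes that fell it was -0.8566 for Zcchc7, -0.8459 for Lrp1b and -0.648 for Pan3. Among microglial and interferon genes without a call in TCKO over CKO it was -1.965 for Gbp3, -3.09 for Ccl2, -2.062 for Cd68, -1.815 for H2-K1, -7.418 for Mx1, -4.132 for Isg15, -4.582 for Cxcl10 and -4.645 for Oasl1. The sterol genes Insig1 and Mvd had 0.9271 and 1.162. The largest positive differences among those printed, 8.601 for Avpr1a, 8.444 for Lbhd2, 6.448 for Sln and 6.064 for Glp1r, rest on 3 libraries described among the other observations.

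In 8 genes printed here that changed, 1 library lay far from the other 3 of its group by Dixon's test. Chance alone meets it in about 1 of 20 groups, and over the genes called in TCKO over CKO 11 of 197 groups (5.58%) met it. In TCKO these were TCKO 5 for C1qa (38.2 CPM, the lowest), TCKO 2 for Rbm5 (80.5 CPM, the lowest) and TCKO 3 for Mlc1 (274 CPM, the highest). In CKO they were CKO 1 for Capg (3.32 CPM, the highest), CKO 4 for Mmp12 (0.0651 CPM, which is 1 read against 0 in the other 3) and for Ccl4 (0.781 CPM), CKO 5 for Selplg (34.9 CPM, the highest) and CKO 4 for Lgmn (151.5 CPM, the lowest).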

How the results depend on the processing

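The size of the TCKO against CKO response depended on the processing; no named gene reversed its direction under any setting run. Against 65 rises and 35 falls, DESeq2 gave 507 and 280, limma voom 29 rises, no filter on low counts 184 and 68, a fit of only the 8 libraries 187 and 114, the TEC share as a covariate 3 and 0, and 18 falls were called without TEC and sense intronic models. Leaving out 1 library gave 10 to 166 rises and 1 to 110 falls, and 10 of the 100 calls held in all 8 such fits. Of the 100, 98 were also called by DESeq2, 55 by limma voom and 84 in the fit of only the 8 libraries. For the difference of the tau effects (129 higher, 455 lower) DESeq2 gave 403 and 860, the TEC covariate 7 and 135, and leaving out 1 library 38 to 541 and 248 to 725; without the choroid-rich WT 1 and T 4 it was 52 higher. T against WT (4490) gave 2934 to 5128 without 1 library and 2696 without WT 1 and T 4. Beyond the fewer samples or genes some settings use, the cause was not tested.

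With the replicate number as a block, TCKO against CKO gave 4 rises and 1 fall, 5 of the 100 calls. Same-numbered CKO and TCKO libraries did not deviate together (r = -0.0254, -0.0244 and 0.0414), so between these groups the number is not read as a pairing. A lost call is not read as a weaker effect. For the difference the block gave 150 higher and 533 lower. Thinning all libraries to 15064258 reads gave 65 rises and 39 falls.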

Other observations

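A few neuronal genes had large positive differences of the tau effects without following the groups. Glp1r, the receptor for glucagon-like peptide 1, stood at 0.867, 66.3, 25.5 and 6.16 CPM in TCKO 2, 3, 4 and 5, at 2.41 to 5.33 CPM in CKO, at 6.55, 44.1, 2.12 and 7.63 CPM in WT 1, 2, 4 and 5, and at 0.513 to 3.43 CPM in T. TCKO 3, TCKO 4 and WT 2 were thus the highest. Lbhd2, a gene of unknown role, was at 42.6 and 21.5 CPM in TCKO 3 and TCKO 4 and at 25.5 CPM in WT 2, with 1.21 and 1.72 CPM in TCKO 2 and TCKO 5. Sln, the calcium pump regulator sarcolipin, was at 21.3, 31.3 and 24.6 CPM in the same 3 libraries and at 1.47 and 1.25 CPM in TCKO 2 and TCKO 5. Avpr1a, a vasopressin receptor, was at 8.71, 1.52 and 4.18 CPM there. Calb2, the calcium-binding protein calretinin, chosen after its values were seen, was at 154 and 134 CPM in TCKO 3 and TCKO 4 and at 19.2 and 12.5 CPM in TCKO 2 and TCKO 5. For Calb2 the difference of the tau effects was 3.75 and did not pass (edgeR adjusted p = 0.0537). With the replicate number as a block, Glp1r, Lbhd2 and Sln did not pass (edgeR adjusted p = 0.102, 0.0588 and 0.0596). None of the 5 passed in TCKO over CKO.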
